A study of Gallus gallus with 48 samples.

Results

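Solute carrier genes were followed through a glucocorticoid experiment in embryonic chicken pituitary cells. They were taken from the array's probe annotation by name alone, as every gene whose symbol starts with SLC and a digit, and the rule used no measured value. The rule found 121 genes on 202 probes, 70 with a single probe and 51 with several. Of these, 112 were measured on 3 or 4 of the 4 arrays of every group and were tested among 11207 features, which were named genes or single unnamed probes. The other 9 had values on too few arrays: SLC23A2 on 39 of 48, SLC25A4 on 34, SLC34A1 on 33, SLC30A7 on 19, SLC2A10 on 18, SLC6A4 on 17, SLC6A9 on 7, SLC25A15 on 2 and SLC35E3 on 0. By the substrate of their family or, in SLC5 and SLC6, of the gene, the 121 genes fell into 15 amino acid carriers, 8 carriers of glucose and other sugars, 25 ion carriers, 22 mitochondrial carriers and 48 others, and 3 symbols name no carrier (SLC7A6OS, SLC9A3R1 and SLC9A3R2, a neighbour gene and a pair of scaffold proteins). Carriers of vesicular transmitters, SLC32A1 among them, were counted with the others whatever their substrate.

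Solute carriers are membrane proteins that move small molecules and ions across membranes without splitting ATP themselves. The first number of the symbol is the family: SLC7, SLC38 and SLC43 hold amino acid carriers, SLC2 the facilitative glucose transporters, SLC12 the cation and chloride cotransporters, SLC30 and SLC39 the zinc carriers, and SLC25 the carriers of the mitochondrial inner membrane that pass metabolites, nucleotides and phosphate. In the anterior pituitary these proteins supply amino acids and fuel for the synthesis of peptide hormones and use the ion gradients on which secretion depends. The roles named below come mostly from work on mammals.

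The cells came from the anterior pituitary of chicken embryos at embryonic day 11, which were dispersed and plated in medium without serum, per the labels' protocols. Groups were defined by corticosterone (CORT, the main glucocorticoid of birds, at 1e-09 M) and by cycloheximide (CHX, which blocks translation, at 10 micrograms per ml). There were 5 groups with CORT for 1.5, 3, 6, 12 or 24 h after 1.5 h of CHX, 5 groups with CORT for the same times and no CHX, 1 group with CHX alone for 1.5 h and 1 untreated group, with 4 replicates in each and 48 arrays in all. No group was given vehicle for as long as CORT, so time in culture cannot be told apart from CORT, and the CHX groups were cultured 1.5 h longer than their counterparts, which cannot be told apart from CHX. The labels do not give whether CHX was washed out, nor whether replicates were separate dispersions, so the p-values reflect only the spread among these arrays, which may be technical. The cells are a mixture, so that fewer cells of a type and less RNA per cell cannot be told apart.

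Each sample, labelled with Cy3, was hybridised with a Cy5-labelled pool, and every value below is a log2 ratio to that pool. The labels of all arrays describe it as made from all 48 RNAs. Those of the 4 untreated arrays have it divided over 16 slides and those of the other arrays over 48, so whether the untreated arrays had the same labelled preparation is not settled, and in comparisons with untreated cells pool and group cannot be told apart. Such ratios compare samples within a gene and give no level, so genes are not ranked by abundance. The sign was not stated and was read as sample over pool. That reading is likely: FKBP5, which glucocorticoids induce in many tissues, was higher in 10 of 10 comparisons with CORT. Were it wrong, every direction below would turn. Arrays correlated between -0.76 and 0.87 over all features, and between -0.69 and 0.79 within a group. The leading axis of variation among replicates, with 51.6% of it, had a mean score of -1.22 on the arrays numbered 1 and of 0.34, 0.0217 and 0.86 on those numbered 2, 3 and 4, and the scores of single arrays overlapped between numbers. The mean score was -0.177 on the arrays after CHX and 0.177 on those without. The spread of a tested solute carrier gene within groups had a median SD of 0.218 (0.0833 to 0.556, n = 112), against 0.229 over all features. It was narrowest for SLC41A1, a magnesium carrier, and widest for SLC35B2, which brings the sulfate donor PAPS into the Golgi. Hormone genes that define pituitary cells (GH, PRL, POMC, TSHB and FSHB) were measured in all groups, but ratios to a pool cannot show how abundant they are.

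The broadest comparison set the 24 arrays after CHX against the 24 without it, averaged over the 6 durations of CORT (0, 1.5, 3, 6, 12 and 24 h). Of the 112 solute carrier genes, 30 (26.8%) differed at an adjusted p under 0.05 in limma's test, 8 higher and 22 lower after CHX. Over all 11207 features 20.1% were called, 1112 (9.92%) higher and 1138 (10.2%) lower. The median difference was 0.0083 for the solute carriers and 0.019 for all features. The 8 higher genes differed by 0.090 to 0.46 and the 22 lower genes by -0.16 to -0.60, and 0 of the 30 passed 2-fold. Errors after ± are standard errors of limma's fit and ranges in parentheses are 95% intervals of the difference. Of the 82 genes not called, 81 had an interval within 0.5 on either side of 0. An average over the 5 durations with CORT, without CHX alone and the untreated arrays and chosen after seeing the data, called 30 genes, the same 30. Its arrays are all part of the main average, so the same calls add no support. The share of all features it called is not given here.

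**Figure D1:**
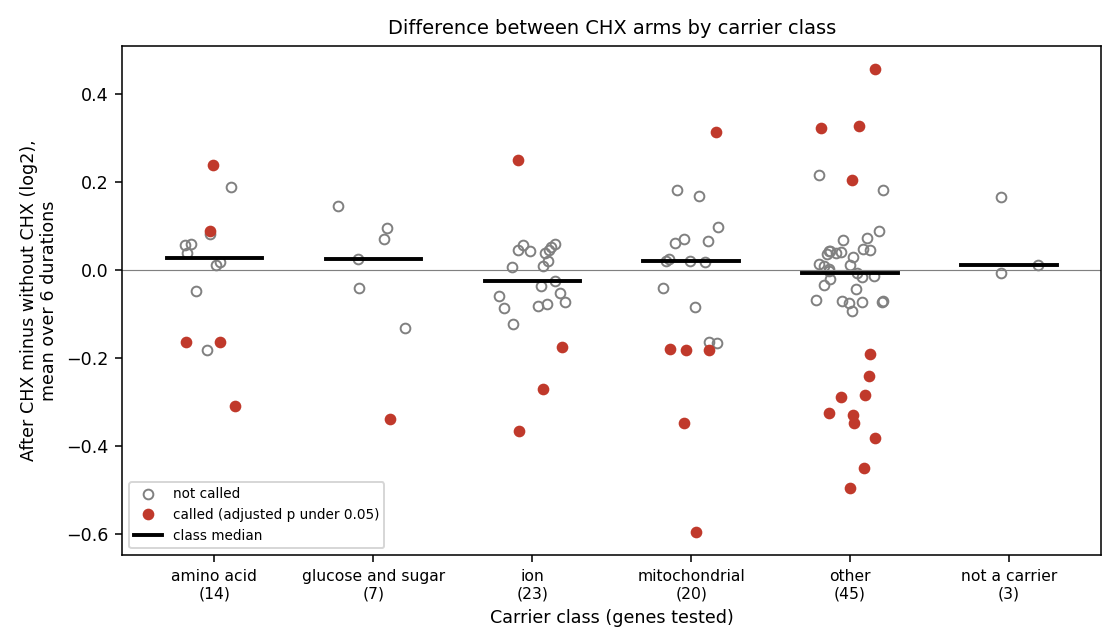
Each point is 1 solute carrier gene, plotted as its mean log2 difference after CHX minus without CHX over the 6 durations, by carrier class, with the number of genes tested under each class name and the class median as a bar. The class medians lie near 0, and the called genes (filled) lie on both sides, with SLC25A6 at -0.60 and SLC15A4 at 0.46 the outermost points.

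Amino acid carriers went both ways. Of 14 tested, 2 were higher and 3 lower after CHX, where 9.92% of all features were higher and 10.2% lower. The classes are small, and no test between them was made. Called genes were picked by their values on these same arrays, so counts of arrays on the same side, here and below, add no support. SLC43A2, which carries large neutral amino acids, ranged from -0.12 to 0.44 with a median of 0.066 on the arrays after CHX, against -0.39 to 0.069 with a median of -0.19 without CHX. It was above the mean of the group without CHX at the same duration on 24 of 24 arrays after CHX, although the ranges of single arrays overlapped. Its difference was 0.24 ± 0.041 (SE, adjusted p = 3.11e-05, limma), and the differences at 0, 1.5, 3, 6, 12 and 24 h were 0.34, 0.28, 0.33, 0.11, 0.23 and 0.14. SLC38A10, a member of the family of sodium-coupled neutral amino acid carriers, was lower by a difference of -0.31 ± 0.068 (adjusted p = 0.000758, limma), with medians of -0.14 after CHX and 0.19 without CHX. At 0 h it differed by 0.10, and from 3 h on by -0.40, -0.43, -0.50 and -0.49. Smaller differences were called for SLC7A5 (LAT1, the main importer of leucine in many dividing cells) at -0.16 ± 0.043, for SLC38A4 (a system A carrier) at -0.16 ± 0.040, and for SLC38A9 (the lysosomal carrier that senses arginine) at 0.090 ± 0.031. The last of these is the smallest difference called, with an interval of 0.027 to 0.15, and it lost its call without some single arrays. The lower value of SLC38A4 came from 1 of its 3 tested probes. SLC38A2, the stress-inducible system A carrier, differed by 0.019 (-0.14 to 0.18), SLC1A4 by 0.056 (-0.079 to 0.19) and SLC7A3, a cationic amino acid carrier, by 0.013 (-0.065 to 0.091), and none of these 3 was called.

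Among the sugar carriers 1 of 7 was called, against 20.1% of all features. SLC2A14 is the name the annotation gives to the chicken gene that also carries the synonyms GLUT3 and SLC2A3, a high-affinity glucose transporter. It ranged from -0.85 to -0.028 with a median of -0.27 on the arrays after CHX, against -0.24 to 0.41 with a median of 0.0064 without CHX. On 23 of 24 arrays after CHX it lay below the mean of the matching group without CHX, and all 24 values after CHX were below 0. The difference was -0.34 ± 0.055 (adjusted p = 1.31e-05, limma), with -0.33, -0.15, -0.19, -0.30, -0.43 and -0.62 at 0, 1.5, 3, 6, 12 and 24 h. SLC37A4, the glucose 6-phosphate carrier of the endoplasmic reticulum, differed by 0.15 (0.032 to 0.26, adjusted p = 0.0624, limma) and was not called. SLC2A8, an intracellular glucose transporter, differed by 0.071 (-0.063 to 0.21).

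Ion carriers held 4 called genes of 23, a share of 17.4% against the 20.1% of all features. SLC12A4 (KCC1), which lets potassium and chloride leave the cell together, was the one that was higher. It ranged from -0.15 to 0.47 with a median of 0.12 on the arrays after CHX, against -0.51 to 0.15 with a median of -0.12 without CHX. Its difference of 0.25 ± 0.037 (adjusted p = 2.58e-06, limma) was spread unevenly over the durations: 0.087, -0.042, 0.15, 0.42, 0.42 and 0.47 at 0, 1.5, 3, 6, 12 and 24 h. SLC12A9, an orphan member of the same family, ran the other way at -0.36 ± 0.090 (adjusted p = 0.0026, limma). SLC39A13, a zinc importer of intracellular membranes, differed by -0.27 ± 0.066 and SLC40A1 (ferroportin, the exporter of iron) by -0.18 ± 0.049. The zinc exporter SLC30A1, which metals induce in mammals, differed by -0.082 (-0.25 to 0.082), the phosphate carrier SLC20A1 by -0.051 (-0.18 to 0.080) and the anion exchanger SLC4A1 by -0.035 (-0.22 to 0.15), and these 3 were not called.

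Of 20 mitochondrial carriers, 1 was higher and 5 were lower after CHX, where 9.92% of all features were higher and 10.2% lower. SLC25A6, an ADP/ATP carrier of the inner membrane, had the largest difference of any solute carrier gene. It ranged from -1.03 to 0.63 with a median of -0.41 on the arrays after CHX, against -0.37 to 0.76 with a median of 0.43 without CHX. The difference was -0.60 ± 0.096 (adjusted p = 1.27e-05, limma), 1.51-fold lower after CHX, and 23 of 24 arrays after CHX lay below the mean of their counterpart. It was smallest at 0 h: -0.22, -0.62, -0.47, -0.60, -0.85 and -0.81 at 0, 1.5, 3, 6, 12 and 24 h. The other ADP/ATP carrier with enough values, SLC25A5, differed by -0.16 (-0.34 to 0.018) and the phosphate carrier SLC25A3 by -0.17 (-0.32 to -0.010), and neither was called. The annotation also lists SLC25A5 as a synonym of the gene named SLC25A6, so which ADP/ATP carrier each name stands for is not settled here. SLC25A20, which exchanges carnitine and acylcarnitines on the way to fatty acid oxidation, differed by -0.35 ± 0.094 (adjusted p = 0.00584, limma). SLC25A1 (the citrate carrier), SLC25A10 (the dicarboxylate carrier) and SLC25A39 (a carrier needed for mitochondrial glutathione) were lower with differences of -0.18, -0.18 and -0.18. SLC25A16, whose substrate is linked to coenzyme A, was higher by 0.31 ± 0.062 (adjusted p = 0.000212, limma). Its values ranged from -0.33 to 0.78 with a median of 0.066 on the arrays after CHX, against -0.82 to 0.28 with a median of -0.15 without CHX, and the differences were -0.0097, -0.020, 0.29, 0.75, 0.40 and 0.48 at 0, 1.5, 3, 6, 12 and 24 h, so those at 0 and 1.5 h were near 0. SLC25A33, a carrier of pyrimidine nucleotides, differed by 0.071 (-0.063 to 0.20).

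**Figure D2:**
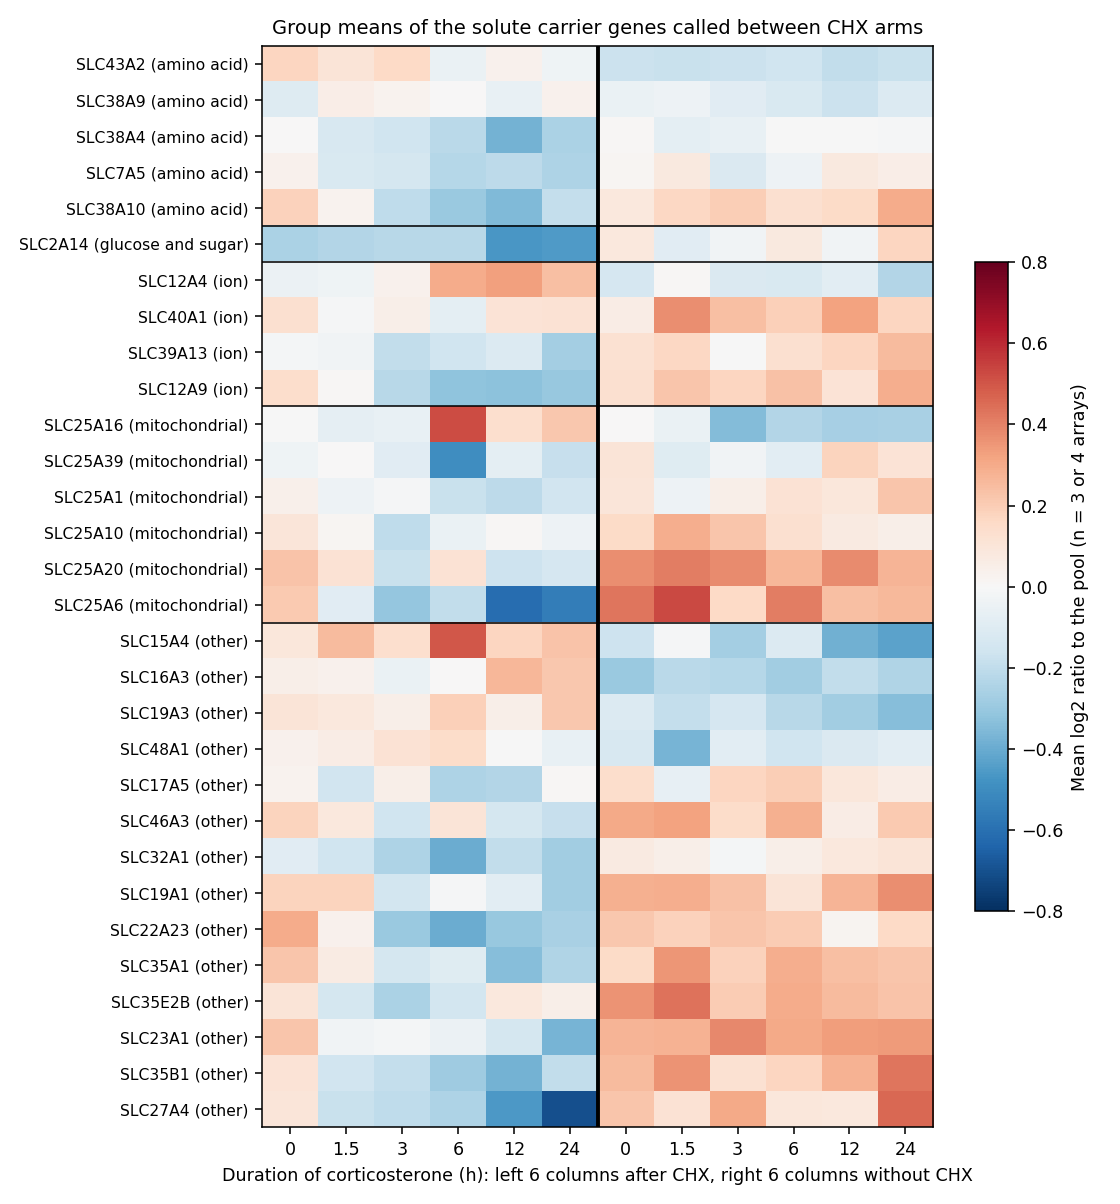
Rows are the 30 solute carrier genes called between the arms, ordered by class and then by difference, and columns are the 12 groups, with CORT durations of 0 to 24 h after CHX on the left and without CHX on the right. Colour is the mean log2 ratio to the pool of 3 or 4 arrays, and the 22 genes called lower are mostly blue on the left and red on the right.

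The remaining families gave 14 called genes of 45, 4 higher and 10 lower, where 9.92% of all features were higher and 10.2% lower. SLC15A4, a lysosomal carrier of histidine and small peptides, ranged from -0.36 to 0.74 with a median of 0.27 on the arrays after CHX, against -0.85 to 0.24 with a median of -0.15 without CHX, with a difference of 0.46 ± 0.078 (adjusted p = 2.87e-05, limma). This was the largest difference on the higher side, 1.37-fold, and 22 of 24 arrays after CHX were above the mean of their counterpart. SLC16A3 (MCT4), which exports lactate from glycolytic cells, ranged from -0.28 to 0.50 with a median of 0.096 on the arrays after CHX, against -0.52 to 0.021 with a median of -0.23 without CHX. Its difference was 0.33 ± 0.050 (adjusted p = 4.51e-06, limma), with 23 of 24 arrays on the higher side. By duration the difference was 0.34 at 0 h, where it was not called, and 0.46 at 24 h. The related lactate and pyruvate carrier SLC16A1 (MCT1) differed by 0.037 (-0.059 to 0.13) and was not called. The thiamine carrier SLC19A3 was higher by 0.32 ± 0.065 and the heme carrier SLC48A1 by 0.20 ± 0.049.

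On the lower side, SLC27A4 (FATP4), which takes up and activates long-chain fatty acids, ranged from -0.89 to 0.50 with a median of -0.38 on the arrays after CHX, against -0.33 to 1.41 with a median of 0.24 without CHX. Its difference was -0.49 ± 0.090 (adjusted p = 7.3e-05, limma), and by duration it was -0.12, -0.29, -0.50, -0.34, -0.55 and -1.16 at 0, 1.5, 3, 6, 12 and 24 h. SLC35B1, which brings ATP into the endoplasmic reticulum, differed by -0.45 ± 0.088 (adjusted p = 0.000175, limma), with medians of -0.23 after CHX and 0.30 without CHX. Its relative SLC35A1, the CMP-sialic acid carrier of the Golgi, differed by -0.33 ± 0.087, and SLC35E2B, whose substrate is unknown, by -0.35 ± 0.061 with 23 of 24 arrays on the lower side. Of 2 vitamin carriers in this direction, SLC23A1 (vitamin C) differed by -0.38 ± 0.070 (adjusted p = 7.26e-05, limma) and SLC19A1 (reduced folate) by -0.29 ± 0.074. SLC32A1, which loads GABA and glycine into synaptic vesicles, differed by -0.28 ± 0.066. As a carrier of vesicular transmitters it is not in the amino acid counts above, although glycine is an amino acid. The lysosomal carriers SLC46A3 and SLC17A5 (sialic acid), and the orphan SLC22A23, differed by -0.24, -0.19 and -0.32. SLC18A2, which loads monoamines into vesicles, differed by 0.015 (-0.078 to 0.11) and was not called. The 3 symbols that name no carrier were not called either.

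**Figure D3:**
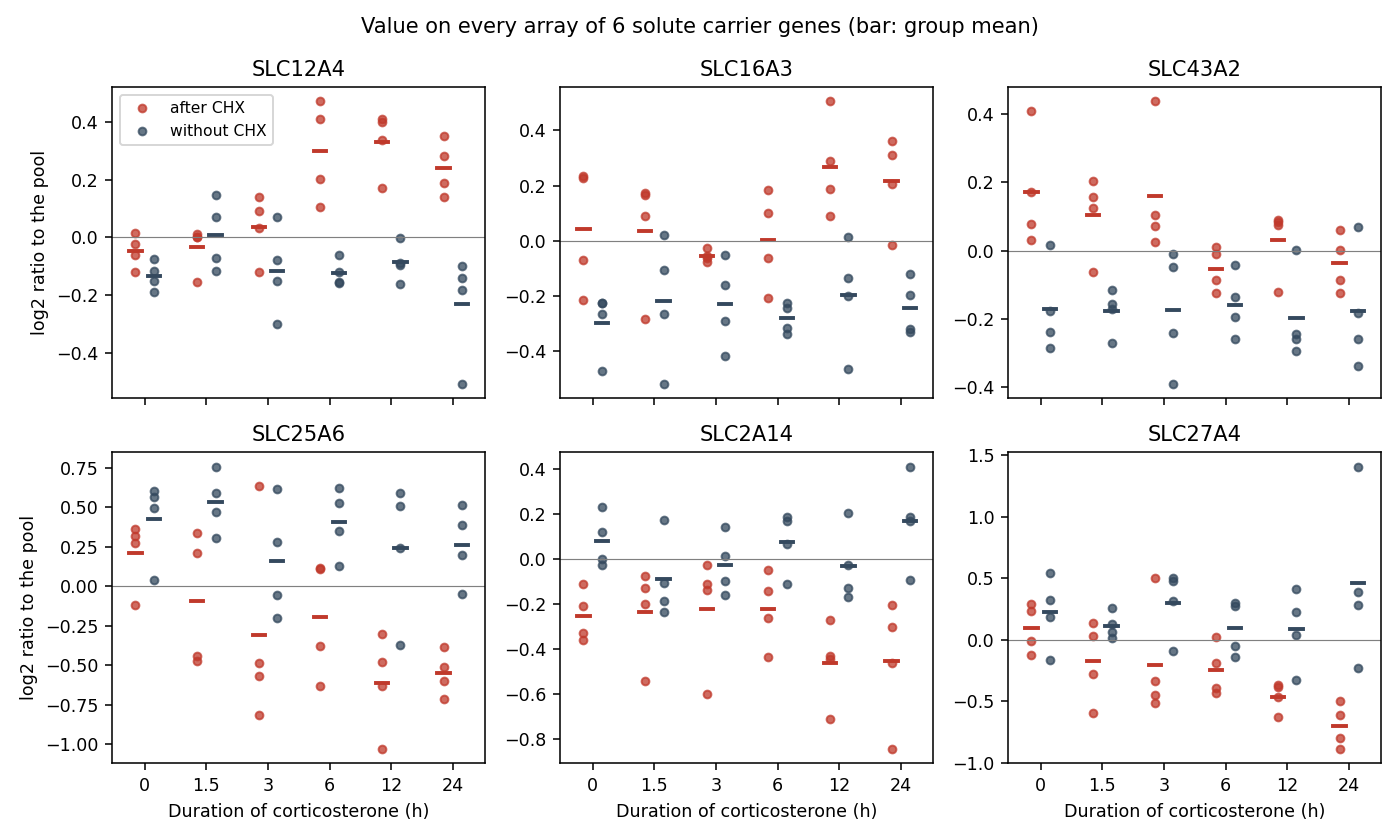
Every array's log2 ratio to the pool is plotted for SLC12A4, SLC16A3, SLC43A2, SLC25A6, SLC2A14 and SLC27A4 against the duration of CORT in h, after CHX (left of each pair) and without CHX (right), with bars at the group means. The groups of SLC43A2 and SLC16A3 do not overlap at 0 h, where neither gene was called. The means of SLC12A4 and SLC27A4 are furthest apart at 24 h, where SLC27A4 differs by -1.16. The interaction test called none of these genes.

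Compared at equal durations of CORT, 4 arrays after CHX against 4 without, the number of solute carrier genes called was 0 at 1.5 h, 0 at 3 h, 5 at 6 h, 3 at 12 h and 11 at 24 h, where the background over all features was 0.393%, 0.161%, 3.93%, 1.4% and 4.95%. As shares of the 112 genes, the last 3 counts were 4.46%, 2.68% and 9.82%. At an unadjusted p under 0.05 the 5 comparisons held 10, 10, 22, 20 and 32 of the 112 genes, against 10.5%, 6.64%, 14.3%, 11.7% and 17.5% of all features. In comparisons where arrays of equal number deviated together (1.5, 6 and 24 h), a fit with the replicate number as a block called 4 genes at 1.5 h, 15 at 6 h and 25 at 24 h. The percentages above belong to the main fit. The share of all features called with the block is not given here, so the blocked counts have no background to be read against.

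At 6 h the largest difference was that of SLC25A16, with values of 0.51, 0.44, 0.78 and 0.34 at 6 h of CORT after CHX, against -0.15, -0.13, -0.45 and -0.19 at 6 h of CORT without CHX. The groups did not overlap, and the difference was 0.75 ± 0.15 (adjusted p = 0.00199, limma). SLC12A4 had 0.20, 0.41, 0.47 and 0.11 at 6 h of CORT after CHX, against -0.060, -0.16, -0.16 and -0.12 at 6 h of CORT without CHX. All 4 values after CHX were above 0 and all 4 without it below 0, a difference of 0.42 ± 0.090 (adjusted p = 0.00368, limma). SLC17A5, the lysosomal carrier of sialic acid, ran the opposite way, with -0.33, -0.24, -0.35 and -0.066 at 6 h of CORT after CHX, against 0.20, 0.27, 0.20 and 0.12 at 6 h of CORT without CHX (difference -0.44, adjusted p = 0.0124, limma). The mitochondrial carriers SLC25A1 and SLC25A39 were lower by differences of -0.30 and -0.41 (adjusted p = 0.0292 and 0.0342, limma), and neither pair of groups overlapped. Here and below, called genes were picked by these same values, so a lack of overlap adds no support to a call.

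At 12 h the called genes were SLC12A4, SLC16A3 and SLC38A4. SLC16A3 had 0.50, 0.19, 0.29 and 0.091 at 12 h of CORT after CHX, against 0.015, -0.13, -0.20 and -0.46 at 12 h of CORT without CHX, a difference of 0.46 ± 0.12 (adjusted p = 0.0382, limma). SLC38A4 had -0.48, -0.46, -0.36 and -0.20 at 12 h of CORT after CHX, against -0.10, 0.12, -0.051 and 0.016 at 12 h of CORT without CHX, a difference of -0.37 ± 0.098 (adjusted p = 0.0415, limma). SLC12A4 differed by 0.42 ± 0.090 (adjusted p = 0.0128, limma), as much as at 6 h. In none of these 3 genes did the groups overlap.

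At 24 h, SLC27A4 had -0.89, -0.62, -0.50 and -0.80 at 24 h of CORT after CHX, against -0.23, 1.41, 0.39 and 0.28 at 24 h of CORT without CHX. Only the array numbered 1 without CHX came below 0, the array numbered 2 stood far above the rest, and the groups did not overlap. The difference was -1.16 ± 0.22 (adjusted p = 0.00126, limma), 2.24-fold lower after CHX. SLC12A4 had 0.14, 0.35, 0.19 and 0.28 at 24 h of CORT after CHX, against -0.099, -0.51, -0.14 and -0.18 at 24 h of CORT without CHX, a difference of 0.47 ± 0.090 (adjusted p = 0.00126, limma). SLC2A14 had -0.20, -0.46, -0.85 and -0.30 at 24 h of CORT after CHX, against 0.17, 0.19, -0.095 and 0.41 at 24 h of CORT without CHX, a difference of -0.62 ± 0.13 (adjusted p = 0.00345, limma). Both were again separated without overlap, SLC12A4 upward and SLC2A14 downward after CHX. SLC25A6 had -0.71, -0.38, -0.60 and -0.51 at 24 h of CORT after CHX, against -0.050, 0.19, 0.39 and 0.51 at 24 h of CORT without CHX, a difference of -0.81 ± 0.24 (adjusted p = 0.0331, limma). SLC23A1 had -0.37, -0.50, -0.091 and -0.52 at 24 h of CORT after CHX, against 0.15, 0.80, 0.30 and 0.12 at 24 h of CORT without CHX, a difference of -0.71 ± 0.17 (adjusted p = 0.00889, limma). The ADP/ATP carrier and the vitamin C carrier were thus both below 0 on every array after CHX. SLC15A4 was higher by 0.66, SLC19A3 by 0.55 and SLC16A3 by 0.46, and SLC19A1, SLC39A13 and SLC25A1 differed by -0.65, -0.52 and -0.37. Of the 11 genes, all picked by their call on these arrays, SLC19A3 alone had overlapping groups. None of the 14 tested genes of the amino acid class was among them, where 4.95% of all features were called, so their absence is not read as a result. SLC15A4, which carries histidine and small peptides, is counted among the others. Leaving out 1 array gave between 3 and 5 calls at 6 h, 0 and 7 at 12 h and 3 and 12 at 24 h. The arrays that moved a count by over 1.5 times were those numbered 1 and 3 after CHX and 3 without it at 6 h, 1 and 3 after CHX and all 4 without it at 12 h, and 2 and 4 of both groups at 24 h. Fits of only the 2 groups compared called 2, 0 and 2.

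CORT after CHX was compared with CHX alone, and these 5 comparisons share their 4 control arrays. The counts were 0, 0, 2, 2 and 2 at 1.5, 3, 6, 12 and 24 h, against 0.0178%, 0.0268%, 1.15%, 1.12% and 2.24% of all features, and 2 of 112 genes is 1.79%. At an unadjusted p under 0.05 there were 2, 8, 16, 19 and 18 of the 112 genes, against 2.3%, 6.79%, 9.64%, 11.4% and 12.2% of all features. Replicate numbers paired the arrays at 1.5 h, where the blocked fit called 0 as well, and at 6 h, where it called 5. SLC12A4 was called at 6 and at 12 h. It had 0.20, 0.41, 0.47 and 0.11 at 6 h of CORT after CHX, against -0.062, 0.014, -0.12 and -0.022 with CHX alone, a difference of 0.34 ± 0.090 (adjusted p = 0.0412, limma). At 12 h the values were 0.40, 0.17, 0.41 and 0.34 (difference 0.38 ± 0.090, adjusted p = 0.0276, limma) and at 24 h 0.14, 0.35, 0.19 and 0.28 (difference 0.29 ± 0.090, adjusted p = 0.0857, limma). From 6 h on each array stood above each CHX-alone array, while at 1.5 and 3 h the differences were 0.013 and 0.083. The moderated F-test over the 5 durations after CHX called 1 solute carrier gene, SLC12A4 (adjusted p = 0.00875, limma), against 1.8% of all features, with 16 genes at an unadjusted p under 0.05 (11.4% of all features). It called 4 genes without array 3 at 24 h of CORT after CHX, and 2 genes without array 2 at 1.5 h, array 2 or 4 at 3 h or array 4 at 12 h of CORT after CHX, or array 2 of CHX alone. A fit of only the groups compared, where fewer arrays estimate the spread, called 0 and also left SLC12A4 uncalled at 6 and 12 h (adjusted p = 0.379 and 0.344, limma). So did leaving out the arrays numbered 1 at 6 and 12 h (adjusted p = 0.141 and 0.0876, limma), while the F-test then called 1. With the replicate number as a block the F-test called 11. For the blocked fits no share of all features is given here, so their counts are not read against a background. Every correlation between arrays of equal number was over 0.1 only at 1.5 and 6 h of its 5 durations.

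The other calls after CHX were falls at single durations. SLC25A39 had -0.73, -0.50, -0.33 and -0.44 at 6 h of CORT after CHX, against 0.060, -0.26, -0.049 and 0.10 with CHX alone (difference -0.46 ± 0.12, adjusted p = 0.0327, limma), but at 12 h it differed by -0.040. SLC38A4 had -0.48, -0.46, -0.36 and -0.20 at 12 h of CORT after CHX, against -0.14, 0.12, 0.11 and -0.089 with CHX alone (difference -0.38 ± 0.098, adjusted p = 0.0426, limma). The glutathione-linked carrier was thus lowest at 6 h and the system A carrier at 12 h, with no overlap of groups in either. SLC27A4 had -0.89, -0.62, -0.50 and -0.80 at 24 h of CORT after CHX, against -0.13, 0.23, -0.0075 and 0.29 with CHX alone (difference -0.80 ± 0.22, adjusted p = 0.0412, limma). SLC35C2, a Golgi protein of the nucleotide sugar carrier family, had -0.27, 0.016 and -0.49 at 24 h of CORT after CHX, against 0.17, 0.21, 0.50 and 0.10 with CHX alone (difference -0.49 ± 0.13, adjusted p = 0.0352, limma), on 3 arrays at 24 h because the array numbered 1 had no value. SLC27A4 lay below CHX alone at each earlier duration too, by -0.27, -0.30, -0.34 and -0.56. Adjusted p-values of the 6 calls lay between 0.0276 and 0.0426, and leaving out 1 array moved the counts between 0 and 3 at 6 h, 0 and 1 at 12 h, and 0 and 3 at 24 h. Each of the CHX-alone arrays numbered 1, 3 and 4 and each of the arrays numbered 1, 2 and 3 at 6 h moved that count by over 1.5 times, as did each of the 8 arrays at 12 h and, at 24 h, the CHX-alone arrays numbered 2, 3 and 4 and the arrays numbered 1, 2 and 4 after CORT.

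Some of the largest differences after CHX were not called. SLC25A6 had -0.48, -0.63, -1.03 and -0.30 at 12 h of CORT after CHX, against -0.12, 0.36, 0.32 and 0.27 with CHX alone, without overlap, yet a difference of -0.82 ± 0.24 left an adjusted p of 0.0781 in limma's test, its spread within groups being among the wider ones. At 24 h it differed by -0.76 ± 0.24 (adjusted p = 0.0794, limma). SLC38A10 differed by -0.48 at 6 h (adjusted p = 0.185, limma) and SLC7A5 by -0.28 at 24 h (adjusted p = 0.2, limma). SLC30A1 differed by -0.49, -0.50, -0.46, -0.39 and -0.33 over the 5 durations (adjusted p = 0.692 at 3 h, limma). All 5 differences rest on the same CHX-alone arrays, the group with the highest mean of this gene (0.29). Its single values after CHX reached 1.23, against a median of -0.086, so the 5 are not separate evidence of a fall. Among sugar carriers the largest test statistics at 1.5, 3, 6, 12 and 24 h belonged to the glucose transporter SLC2A2 (0.26), SLC37A3 (-0.16), SLC2A2 (0.26), SLC2A14 (-0.21) and SLC37A2 (0.17), with adjusted p-values of 0.495 or more in limma's test. The carriers SLC38A9 and SLC25A30 headed their classes at 1.5 h with 0.15 and -0.37, also not called. For SLC25A30 too, CHX alone was the group with the highest mean (0.25), and single values after CHX reached 1.20, against a median of 0.010.

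**Figure D4:**
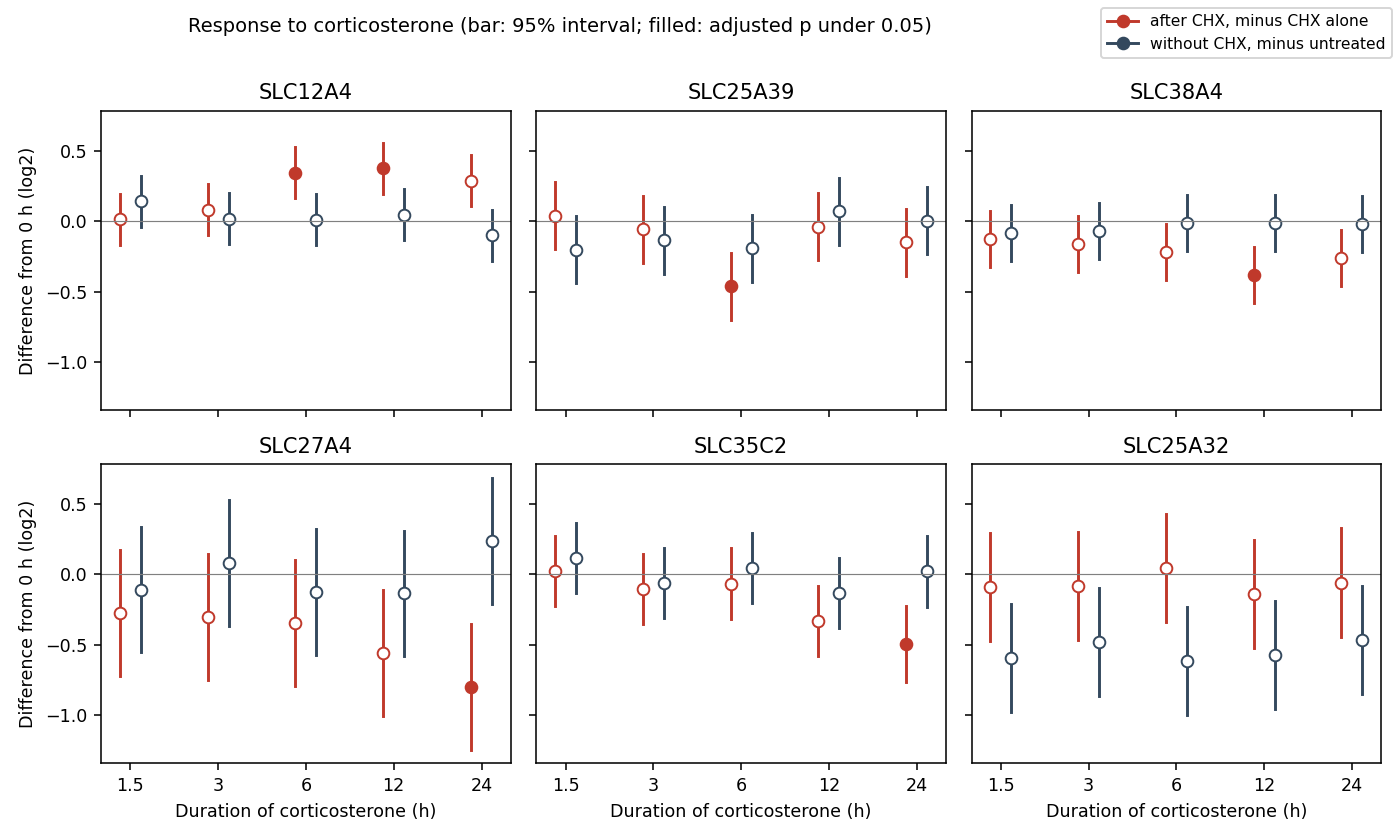
Differences from the 0 h group (log2) are plotted against the duration of CORT in h for SLC12A4, SLC25A39, SLC38A4, SLC27A4, SLC35C2 and SLC25A32, after CHX minus CHX alone (left of each pair) and without CHX minus untreated (right), with 95% intervals and filled points where the adjusted p was under 0.05. SLC12A4 is filled at 6 and 12 h after CHX, and every point without CHX is open.

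CORT without CHX was compared with untreated cells, and these 5 comparisons share the 4 untreated arrays. No solute carrier gene was called by limma at 1.5, 3, 6, 12 or 24 h, where 0%, 0.0268%, 0.0982%, 0.0178% and 0.0178% of all features were called. At an unadjusted p under 0.05 there were 6, 2, 3, 3 and 2 of the 112 genes, against 6%, 1.81%, 2.06%, 2.53% and 2.17% of all features. The F-test over the 5 durations called 0 solute carrier genes and 0.0268% of all features, with 1 gene at an unadjusted p under 0.05 (3.75% of all features). The 95% intervals reached a median of 0.318 to either side of the difference at 1.5 h, so smaller differences were not detectable in most genes. These intervals are not adjusted for the number of features, so differences well above 0.318 could also go uncalled, as that of SLC30A8 below did. SLC40A1, the iron exporter, had 0.39, 0.53, 0.31 and 0.27 at 1.5 h of CORT, against 0.24, 0.24, -0.088 and -0.14 in untreated cells. The groups did not overlap, but the difference of 0.31 ± 0.12 had an adjusted p of 0.608 in limma's test, and at 3, 6, 12 and 24 h it was 0.18, 0.13, 0.26 and 0.11. SLC30A8, the zinc carrier of secretory granules, differed by 0.47 ± 0.16 at 6 h (0.14 to 0.80). Among the amino acid carriers SLC7A3 differed by -0.20 at 1.5 h, SLC7A10, a carrier of small neutral amino acids, by -0.18 at 3 h and -0.16 at 6 h, SLC38A9 by -0.12 at 12 h and SLC38A10 by 0.21 at 24 h. Among the sugar carriers SLC37A4 differed by -0.27 at 1.5 h and -0.12 at 12 h, the sugar phosphate carrier SLC37A2 by 0.14 at 3 h and 0.077 at 6 h, and SLC2A14 by 0.087 at 24 h. The bicarbonate carrier SLC4A10 differed by 0.26 at 24 h. These had the largest test statistics of the amino acid, sugar, ion or mitochondrial class, and none was called. SLC5A11, an inositol carrier of the sodium/glucose cotransporter family and counted among the others, is named after its values were seen: it differed by -0.18, -0.20 and -0.18 at 6, 12 and 24 h, with overlapping groups, and was not called either.

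SLC25A32, a mitochondrial carrier linked to folate and FAD, headed the mitochondrial class in all 5 comparisons of CORT and in that of CHX alone. It had -0.13, -0.17, -0.14 and -0.17 at 6 h of CORT, against 0.074, 0.14, -0.098 and 1.73 in untreated cells. The untreated array numbered 4 stood alone. With it the 5 differences were -0.60, -0.48, -0.61, -0.57 and -0.46, none of them called, and without it they lay between -0.19 and -0.040.

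CHX alone, compared with untreated cells, gave 0 called solute carrier genes in limma's test against 0.0178% of all features, with 4 genes at an unadjusted p under 0.05 (2.34% of all features). SLC43A2 had 0.17, 0.078, 0.41 and 0.031 with CHX alone, against 0.016, -0.24, -0.18 and -0.28 in untreated cells, without overlap (difference 0.34 ± 0.10, adjusted p = 0.988, limma). SLC16A3 had 0.23, 0.23, -0.21 and -0.071 with CHX alone, against -0.22, -0.26, -0.23 and -0.47 in untreated cells (difference 0.34 ± 0.12). SLC2A14 had -0.11, -0.21, -0.36 and -0.33 with CHX alone, against -0.0012, 0.23, -0.026 and 0.12 in untreated cells (difference -0.33 ± 0.13). In all 3 genes every array with CHX alone lay on the same side of every untreated array. They are named here for an unadjusted p under 0.05 on these same arrays, so that separation is no further support. The remaining gene under 0.05 was SLC25A32, at -0.48, and at -0.061 without the untreated array numbered 4. SLC39A11, a zinc carrier, had the largest test statistic among the ion carriers, at -0.14.

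Whether the response to CORT differed between the arms was tested directly. The F-test of the interaction called 0 solute carrier genes and 0% of all features in limma's test, with 5 of the 112 genes at an unadjusted p under 0.05 (4.71% of all features). Taken duration by duration, 560 differences of differences were tested, and the smallest adjusted p was 0.273 for SLC27A4 at 24 h (limma), with a difference of differences of -1.04. SLC25A16 at 6 h had 0.76 and SLC12A4 at 24 h 0.39. A response after CHX is therefore not shown to differ from that without CHX for any solute carrier gene in this fit.

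Several probes of a gene did not always give the same value. Of the 30 genes called between the arms, 14 had more than 1 tested probe, and in 11 of these every probe had the same direction. In 3 at least 1 probe went the opposite way: the probes gave -0.69, 0.12 and 0.082 for SLC38A4, -0.42 and 0.073 for SLC40A1, and -0.46, -0.16 and 0.081 for SLC25A1. For SLC38A4 only 1 of the 3 tested probes went the way of the averaged gene. SLC25A6 had 3 probes at -0.71, -0.77 and -0.89 and 1 at -0.023, so the gene's average understates the first 3. The 3 tested probes of SLC38A10 lay between -0.48 and -0.38. SLC43A2 had probes at 0.42 and 0.056, and SLC16A3 at 0.49 and 0.18. The probes are cDNA, and whether those of close relatives such as SLC25A4, SLC25A5 and SLC25A6 share signal was not tested.

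**Figure D5:**
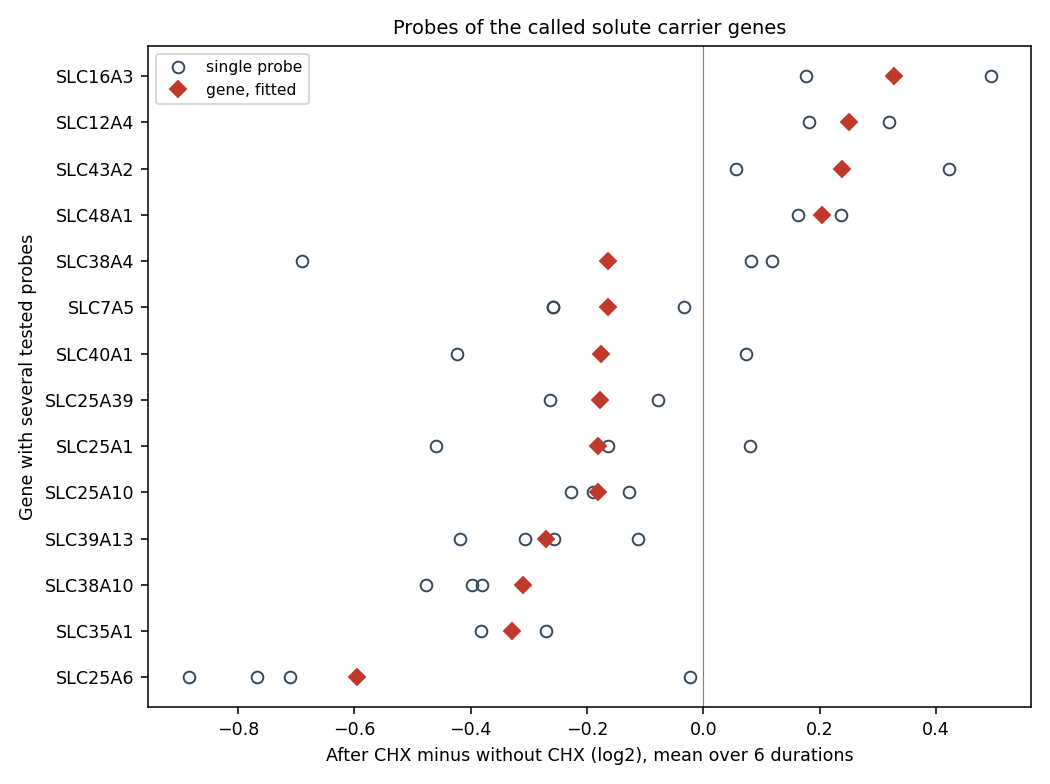
For the 14 called genes with several tested probes, open circles give the difference after CHX minus without CHX (log2, mean over 6 durations) of each probe and diamonds that of the averaged gene. SLC25A6 and SLC38A4 have the widest spread between probes, and SLC38A4, SLC40A1 and SLC25A1 have probes on both sides of 0.

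The axis of spread within groups ran through the solute carriers about as often as through other genes. Within groups 66 of 112 (58.9%) correlated with it beyond 0.5 in size, against 62.5% of all features (n = 48 arrays, all set against a pool). With the sign kept, 30.4% of the 112 solute carrier genes and 25.7% of all features correlated with it above 0.5. Of the 22 genes called lower between the arms, 15 did (median 0.656), against 58.3% of the 1138 features called lower. Genes called lower thus ran with the axis more often than features at large, in the solute carriers and over all features. Of the 8 called higher 2 did (median -0.152), against 29.7% of the 1112 features called higher. With the score of each array as a covariate all 30 kept their call and sign. The score was taken from the spread of these same arrays and so narrows the errors of genes that follow it. Keeping a call in that fit is therefore no test of the axis, whose part in the differences was not tested. The share of all called features that kept their call is not given here. SLC25A6, for one, had a difference of -0.50 ± 0.052 in that fit, and SLC27A4 of -0.41 ± 0.061. Both differences and both errors were smaller than in the main fit, while the difference of SLC15A4 was larger, at 0.52 ± 0.058.

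Markers of the cell types that the culture could hold were counted between the arms, where 20.1% of all features were called. Of 10 pituitary genes tested, 1 was higher after CHX and 4 lower: TSHB, a subunit of thyrotropin, differed by -0.92 (adjusted p = 3.51e-07, limma), CHGA by -0.71, PCSK1 by -0.25, POU1F1 by -0.22 and SCG2 by 0.13. Of 8 markers of neurons and glia 3 were lower, led by TUBB3 at -1.16 (adjusted p = 0.00012, limma). In that list 4 differences were above 0 and 4 below, with a median of -0.038. Of 10 fibroblast markers 1 was lower (COL6A3, -0.27). The mean of the fibroblast list was -0.358 at 24 h of CORT after CHX and 0.0913 at 24 h of CORT without CHX. Between these 2 groups 0 of the 10 markers were called, and at 12 h the means were -0.00244 after CHX and 0.0481 without. Fibroblasts were not alone in this. At 24 h the neuron and glia list had means of -0.336 after CHX and 0.0998 without, and the pituitary list -0.17 and 0.157. Of these, 1 of 8 and 2 of 10 genes were called lower, where 4.95% of all features were called. The endothelial, immune and red blood cell lists had higher means after CHX at 24 h (0.0769, 0.0226 and 0.15). Of 4 immune markers 1 was lower (LAPTM5, -0.12), and of 6 endothelial and 3 red blood cell markers 0 were called. The part of any of these in the solute carrier differences was not tested.

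Genes whose products work beside the carriers were counted in the same comparison. Of 13 glycolytic genes 3 were lower after CHX: ENO1 (enolase) at -0.69 (adjusted p = 0.00348, limma), GPI at -0.32 and LDHA at -0.26. The other 10 were not called, and 11 of the 13 differences were below 0, where SLC2A14 was lower and the lactate exporter SLC16A3 higher. Of 10 genes of the amino acid response, ATF4, its central transcription factor, was higher by 0.82 (adjusted p = 4.05e-10, limma), while the serine synthesis enzymes PHGDH and PSAT1 and the tRNA exporter XPOT were lower, with differences of -0.17, -0.19 and -0.25. ASNS differed by -0.16 and was not called. Of 9 genes of outer membrane channels and protein import into mitochondria, TOMM20 was lower (-0.36). Of 4 subunits and regulators of the sodium-potassium pump, which sets the gradient that many of these carriers use, 0 were called. Within the lists the called share was read against 20.1% of all features, and no test of a list was made.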

How the data were processed

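RNA from 48 samples of embryonic chicken pituitary cells was measured on 2-colour cDNA arrays, each against a pool described as made from all samples, per the labels' protocols, which differ for the untreated arrays in the number of slides it served. The deposited values were log ratios for 19200 probes, read as log2 from the values themselves: of 739065 deposited values other than 0, 683 equalled the log2 of a ratio of small whole numbers, against 134 for the natural log and 260 for log10. How the spots were corrected and normalised, and with what software, is not given in the sources used here. Array medians of -0.0376 to 0.0484 and SDs of 0.301 to 0.324 were nearly alike across the deposited log2 ratios, as after centring and scaling, a step no source names and one that would remove differences in total RNA and could compress large changes. Spot intensities were not used here, so signal over background is unknown and the number of arrays limits precision.

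Probes of 1 gene were averaged, under current RefSeq symbols found through the gene identifier (202 of 202 solute carrier probes). Features needed a value on at least 3 of 4 arrays in every group. All 48 arrays entered 1 group-means model in limma 3.58.1 (R 4.3.3; 36 residual degrees of freedom), two-sided, with Benjamini-Hochberg adjustment over all 11207 features within each of 17 comparisons and 3 F-tests, and calls were made at an adjusted p under 0.05. The model was also run on simulated data with independent noise in every feature and array. The real arrays share deviations across features, so that run does not give the error rate here. The sources name no test of the authors' own.

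The solute carriers as a subject and the gene lists were chosen with earlier results of these data known, although the rule that takes the genes by symbol uses no measured value. Named genes were every gene called in any test (31), the gene with the largest test statistic in each of 4 classes in the comparisons with 0 h groups (22 genes), and 18 tested genes of a list of 36 with known regulation. The labels give arrays of different groups the same replicate numbers without saying what these share. Arrays of equal number deviated together (every correlation over 0.1) in 6 of 16 comparisons, where the fit with a replicate block is given beside the count if it moved it. Of the 64 single correlations 50 were over 0.1 (range -0.491 to 0.881), so shared deviations were not limited to those 6 comparisons. Alternatives were another normalisation, other filters, zeros as missing, single probes, fewer groups, array weights, the block, the axis score and leaving out arrays.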

Additional observations from a re-analysis of the deposited data

Results flagged for a closer look

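Among 19 solute carrier genes whose values were looked at array by array, 13 of 226 groups of 4 held an array that stood further from the other 3 than Dixon's test allows. Chance gives about 5% of groups, and this count is near that share, so a listed array need not be aberrant. SLC25A32 in untreated cells had 1.73 on the array numbered 4, with the others from -0.098 to 0.14. SLC25A20 had -0.34 on untreated array 1 (others 0.57 to 0.68), 0.48 on array 4 at 3 h of CORT after CHX (others -0.48 to -0.33) and -0.26 on array 1 at 12 h of CORT (others 0.53 to 0.65). SLC35B1 had -0.18 on array 1 at 24 h of CORT (others 0.56 to 0.68). SLC38A4 had 0.074 on array 4 at 3 h of CORT after CHX (others -0.25 to -0.22) and -0.067 on array 2 at 24 h after CHX (others -0.34 to -0.30). SLC43A2 had -0.12 on array 1 at 12 h of CORT after CHX (others 0.074 to 0.089) and 0.0011 on array 1 at 12 h of CORT without CHX (others -0.29 to -0.24). SLC25A39 had 0.11 on array 1 at 6 h of CORT (others -0.18 to -0.13), and SLC25A16 had -0.046 on array 4 at 24 h of CORT (others -0.36 to -0.31). SLC12A4 had -0.15 on array 4 at 1.5 h of CORT after CHX (others 0.000061 to 0.013), and SLC16A3 had -0.47 on untreated array 4 (others -0.26 to -0.22). The arrays concerned were numbered 1 or 4 in all of these but 1.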

How the results depend on the processing

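The CHX average over the durations kept between 28 and 39 calls under every alternative run, and 29 to 34 when single arrays were left out. All 30 genes kept their direction, where single probes are read as the probe with the smallest p, although other probes of SLC38A4, SLC40A1 and SLC25A1 ran the opposite way. SLC38A9 was the only one of the 30 to lose its call, in 12 of 59 settings (under quantile normalisation and with array medians set to 0, among others). The comparisons of 4 with 4 arrays depended more on the setting, and the cause was not tested. Counts are given as after CHX at 6, 12 and 24 h against CHX alone, then at 6, 12 and 24 h against CORT of equal duration. The main counts were 2, 2 and 2, then 5, 3 and 11. Shares of all features called under the alternatives are not given here, so a changed count is not a result about solute carriers. Array weights gave 5, 8 and 7, then 12, 16 and 28, with 13 at 3 h against CHX alone, 3 and 6 at 1.5 and 3 h against CORT, 1 for CORT 1.5 h without CHX, 19 for the F-test after CHX and 1 for the interaction. The replicate block gave 5, 8 and 10, then 15, 12 and 25, with 1 at 3 h against CHX alone, 4 and 1 at 1.5 and 3 h against CORT and 11 for the F-test after CHX, and it changed no other count by over 1.5 times. The axis score as a covariate gave 9, 7 and 4, then 16, 12 and 17, with 5 and 1 at 1.5 and 3 h against CORT, 11 for the F-test after CHX and 1 for the interaction. Fits of only the groups compared, where fewer arrays estimate the spread, gave 0 at 6 and 12 h against CHX alone, 2, 0 and 2 against CORT, and 0 for the F-test after CHX. Leaving out the arrays numbered 1, an alternative chosen after seeing the data, gave 0 and 1 at 6 and 12 h against CHX alone and 2 and 5 at 6 and 12 h against CORT. Quantile normalisation gave 1 and 1 at 6 and 12 h against CHX alone, array medians set to 0 gave 1 and 0 at 12 and 24 h, a value required on all 48 arrays gave 1 at 24 h, and single probes gave 4 at 24 h against CHX alone and 5 at 12 h against CORT. Leaving out single arrays gave 0 to 3, 0 to 1 and 0 to 3, then 3 to 5, 0 to 7 and 3 to 12, and 1 to 4 for the F-test after CHX, and the 0 counts of the other comparisons stayed 0. SLC25A16 at 6 h against CORT kept its call in all 19 settings. SLC37A2, never called, changed sign without CHX: -0.17 at 3 h by single probes and -0.030 at 6 h without the arrays numbered 1. Signal over background is unknown. With 4 arrays a group most differences under 0.3 were undetectable, and larger ones also went uncalled after adjustment.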
